A study of Mus musculus with 12 samples.

Results

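Reactive astrocyte genes are the genes that astrocytes raise when the brain is injured, inflamed or losing neurons. The 10 genes described here are Gfap, Vim, Nes, Cd44, Serpina3n, Osmr, Stat3, Socs3, Timp1 and Lcn2, and their members on the array are the 21 probe sets that the platform annotation assigns to 1 of them alone, among 22690 probe sets and 12393 annotated genes. They were followed in the cerebellum of mice that lack Npc1, a lysosomal cholesterol transporter whose loss causes Niemann-Pick type C disease. The groups were Npc1-/- at postnatal day 49 (P49), Npc1+/+ at P49, Npc1-/- at P21 and Npc1+/+ at P21, with 3 individual animals and so 3 arrays in each. All animals were of a BALB/c Npc1 strain on a standard chow diet and received no treatment, and the labels name neither the allele nor any transgene. By label every animal was female except Npc1-/- P49 replicate 1, which was male.

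As background, reactive astrocytes thicken their cytoskeleton of intermediate filaments, change their surface and matrix, and secrete protease inhibitors and acute-phase proteins. Much of this runs through cytokines of the interleukin-6 family, which bind receptors that share the subunit gp130, activate the kinases of the JAK family and the transcription factor STAT3, and induce the feedback inhibitor SOCS3. In the cerebellum the response takes place in the astrocytes of the granule layer and white matter and in Bergmann glia, whose processes surround Purkinje cells. Several of the 10 genes are not specific to astrocytes, since meningeal fibroblasts, vessel cells and activated microglia also express Vim and Cd44.

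The 250 bases upstream of the start site were read from RefSeq for all 10 genes (build GRCm38.p6) and searched on both strands for the STAT site TTCNNNGAA and the AP-1 site TGANTCA. No window of a member held both. The upstream sequences of Gfap (chr11:102897201-102897450, minus strand) and Serpina3n (chr12:104406458-104406707, plus strand) are shown because these genes had the largest rises among the 10, and that of Socs3 (chr11:117969367-117969616, minus strand) because it held the only match. Capitals mark the STAT match.
Gfap: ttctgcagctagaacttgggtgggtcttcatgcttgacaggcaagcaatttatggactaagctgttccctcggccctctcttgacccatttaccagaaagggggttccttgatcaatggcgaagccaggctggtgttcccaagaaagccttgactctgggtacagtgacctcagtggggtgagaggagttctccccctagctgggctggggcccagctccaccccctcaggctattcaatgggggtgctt
Serpina3n: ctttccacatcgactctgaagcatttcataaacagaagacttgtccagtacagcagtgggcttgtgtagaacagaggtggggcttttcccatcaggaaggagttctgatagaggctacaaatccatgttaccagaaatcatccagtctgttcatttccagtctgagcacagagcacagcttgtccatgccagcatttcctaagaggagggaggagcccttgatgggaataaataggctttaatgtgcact
Socs3: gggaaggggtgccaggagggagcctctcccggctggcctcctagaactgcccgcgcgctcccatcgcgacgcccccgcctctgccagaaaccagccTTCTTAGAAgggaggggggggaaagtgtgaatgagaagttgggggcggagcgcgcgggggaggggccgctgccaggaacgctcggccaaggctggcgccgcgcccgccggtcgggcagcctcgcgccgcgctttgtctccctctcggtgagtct
The match in Socs3 begins at base -154 relative to the start site. No other member held the STAT letters in this window and none held the AP-1 letters. Of 32851 annotated upstream windows of the same length 7.02% held the first and 6.75% the second. With only 10 windows, 1 match of the first and none of the second are near these shares. A match describes letters and not binding, and the absence of one says nothing about sites elsewhere.

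Levels below are log2(intensity + 16) after quantile normalization. Npc1 itself lay between 8.25 and 10.53 on the Npc1-/- arrays and between 11.06 and 11.75 on the Npc1+/+ arrays, without overlap. Its difference did not pass at P49 (-1.43 ± 0.37, limma, adjusted p = 0.0591) or P21 (-1.95 ± 0.37, adjusted p = 0.101), and the labels do not place the probe set within or outside the altered part of the gene. Xist lay apart on 3 arrays labelled female, at 13.01 and 13.36 on Npc1-/- P21 replicates 2 and 3 and at 9.28 on Npc1+/+ P21 replicate 2, against 15.61 to 15.86 on the other 9 arrays, among them the one labelled male at 15.63. The Y-linked gene Eif2s3y was at 9.25, 12.67 and 12.72 on these 3 arrays, against 4.35 to 8.91 on the others. Both null arrays were thus between the other levels of Xist, and one of them was only just above the other levels of Eif2s3y. The labels of these 3 arrays are called doubtful below, and tests that use the P21 groups are also given without them for the genes named, which leaves 1 Npc1-/- P21 array, assumed to vary like the other groups, and 2 Npc1+/+ P21 arrays. Detection calls were not used here, so low levels are not shown to be above background. No value in the table was 0, and the number of arrays limits the precision of every value.

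At P49 Gfap, Serpina3n, Cd44 and Vim were higher in Npc1-/- cerebellum. Gfap was 9.88-fold higher, Serpina3n was higher by 3.12 on the log2 scale, Cd44 was 3.1-fold and Vim 2.07-fold higher, and each passed the test. In a limma fit of all 22626 probe sets that are not controls, 6 of the 21 member probe sets were called higher at P49 (adjusted p under 0.05), from 4 of the 10 genes, and none was called lower. Over all probe sets 0.937% were called higher. Differences were positive for 19 of the 21 member probe sets, beside 45.9% of the genes tested. Their median was 1.05, beside -0.02 over all probe sets. The 3 Npc1-/- P49 values lay above all 3 Npc1+/+ P49 values for 15 of the 21 probe sets and for the brightest probe set of 8 of the 10 genes, beside 11.2% of the genes tested. The exceptions among the genes were Nes and Lcn2. In whole tissue, more cells of a type and more RNA per cell cannot be told apart.

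**Figure D1:**
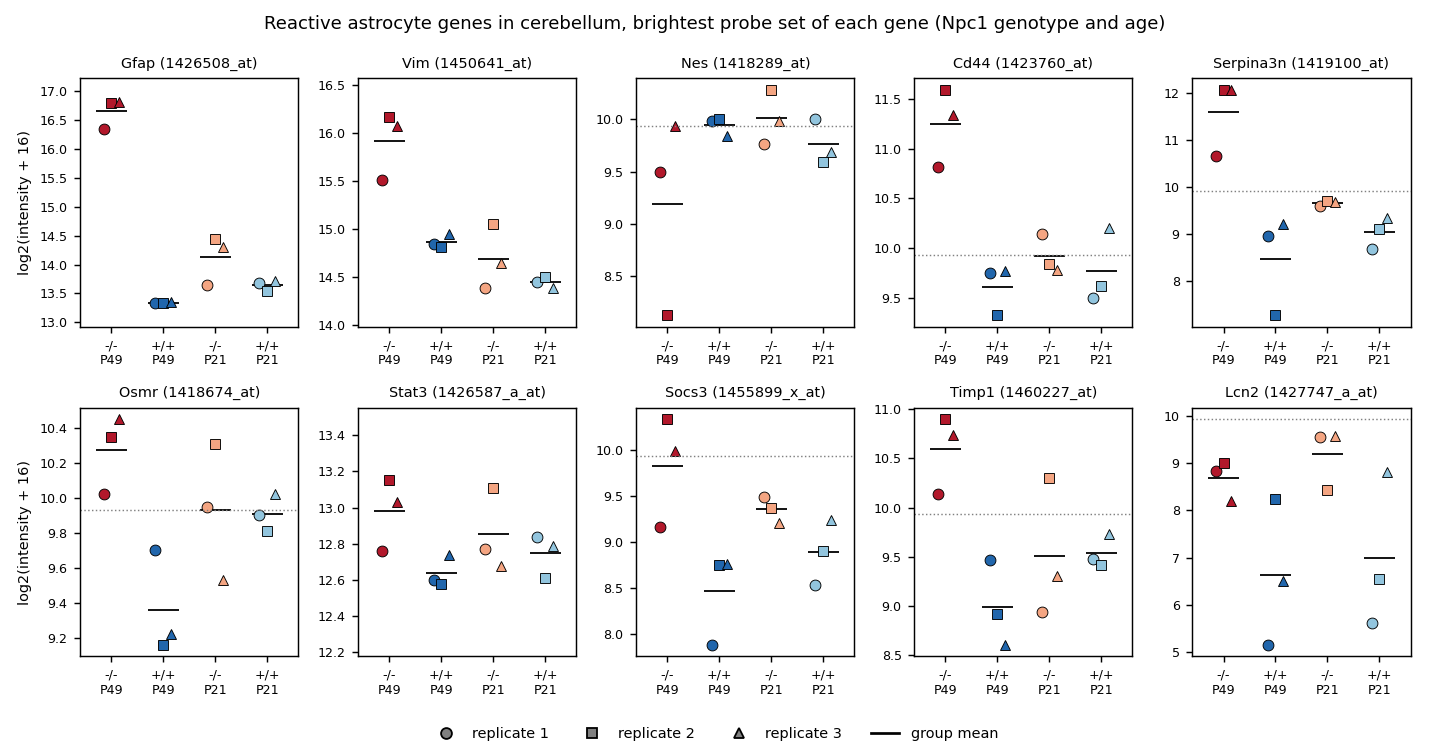
Level of the brightest probe set of each of the 10 genes on all 12 arrays, as log2(intensity + 16), by group; symbols are replicates, bars are group means and the dotted line is the filter at 9.93. Gfap and Vim stand above the filter on every array, while most levels of Nes, Serpina3n, Osmr, Socs3, Timp1 and Lcn2 outside the Npc1-/- P49 group lie near or below it.

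Gfap, the main intermediate filament protein of astrocytes, had levels of 16.34, 16.78 and 16.81 in Npc1-/- P49 animals, against 13.33, 13.34 and 13.35 in Npc1+/+ P49 animals. The 3 null animals stood far above the wild-type animals, which were nearly identical. As intensity this was 104000 ± 17700 in Npc1-/- and 10400 ± 82.8 in Npc1+/+ cerebellum (SD, n = 3 each). The difference was 3.30 ± 0.17 (SE; limma over 7835 genes, adjusted p = 5.82e-08), rank 10 from the largest rise and rank 4 by p among the genes tested. The second Gfap probe set, 1426509_s_at, gave 15.71, 16.44 and 16.36 in Npc1-/- P49 animals, against 12.49, 12.38 and 12.54 in Npc1+/+ P49 animals. Its difference was 3.70 ± 0.25 (limma over all probe sets, adjusted p = 1.63e-06).

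Vim encodes vimentin, the filament that astrocytes assemble together with GFAP. Its levels were 15.51, 16.17 and 16.07 in Npc1-/- P49 animals, against 14.84, 14.81 and 14.95 in Npc1+/+ P49 animals, again without overlap. The difference was 1.05 ± 0.17 (limma, adjusted p = 0.00288). Of the further Vim probe sets, 1456292_a_at passed at 0.90 ± 0.18 (limma over all probe sets, adjusted p = 0.0209) and 1438118_x_at did not at 0.74 ± 0.20 (adjusted p = 0.113). All 3 Vim probe sets separated the genotypes at P49. In Affymetrix naming the endings _s_at and _x_at mark probe sets whose probes can match other transcripts as well.

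Nes encodes nestin, a filament of neural progenitors that some reactive astrocytes express again. It did not follow Gfap and Vim. Its brightest probe set had 9.50, 8.13 and 9.93 in Npc1-/- P49 animals, against 9.98, 10.00 and 9.84 in Npc1+/+ P49 animals, a difference of -0.75 ± 0.39 (limma over all probe sets, adjusted p = 0.604). The groups overlapped, and the spread came mostly from Npc1-/- P49 replicate 2. The other Nes probe sets gave 0.17 ± 0.78 and 0.38 ± 0.73, and their groups overlapped too.

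Cd44 is a surface receptor for the matrix polysaccharide hyaluronan. It had 10.82, 11.59 and 11.34 in Npc1-/- P49 animals, against 9.75, 9.33 and 9.77 in Npc1+/+ P49 animals. Every null animal was above every wild-type animal, by 1.63 ± 0.26 (limma, adjusted p = 0.00236). Its mean was below the filter in the other 3 groups, so it was tested among the 7835 genes only through its Npc1-/- P49 level. In the fit of all probe sets, which has no filter, the same probe set passed as well (adjusted p = 0.00721), and the second, 1452483_a_at, had a difference of 1.44 ± 0.59 and did not pass (adjusted p = 0.429).

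Timp1, a secreted inhibitor of matrix metalloproteinases, lay at the edge of the test. Its levels were 10.14, 10.90 and 10.74 in Npc1-/- P49 animals, against 9.46, 8.91 and 8.60 in Npc1+/+ P49 animals. The groups did not overlap. The difference of 1.60 ± 0.38 missed the threshold in limma over all probe sets (adjusted p = 0.0548) and passed it over 12393 genes without a filter (adjusted p = 0.0436). With the mean log2 level of choroid plexus or meningeal markers as a covariate in the limma fit it was 1.27 (adjusted p = 0.325) or 1.25 (0.307).

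Serpina3n, a secreted serine protease inhibitor of the acute phase, was dim in every group but the Npc1-/- P49 animals. Its levels there were 10.66, 12.08 and 12.08, against 8.96, 7.28 and 9.22 in Npc1+/+ P49 animals. All 3 null animals were higher, with replicate 1 well below the other two. The difference was 3.12 ± 0.49 (limma over all probe sets, adjusted p = 0.00367). The wild-type levels are not shown to be above background, so the size of this difference is uncertain.

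Lcn2 encodes lipocalin 2, a secreted carrier of bacterial iron chelators. It had 8.84, 9.00 and 8.20 in Npc1-/- P49 animals, against 5.15, 8.25 and 6.50 in Npc1+/+ P49 animals. The ranges touched through wild-type replicate 2, and the difference of 2.05 ± 0.84 did not pass (limma over all probe sets, adjusted p = 0.43). All 6 levels lie below the filter and may be background, so the size of the difference is uncertain.

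Of the gp130 and STAT3 axis, the signalling genes had smaller differences than Gfap and none passed. Osmr, the receptor subunit that binds oncostatin M together with gp130, had 10.02, 10.35 and 10.45 in Npc1-/- P49 animals, against 9.70, 9.16 and 9.22 in Npc1+/+ P49 animals. The groups were apart, by 0.91 ± 0.28 (limma over all probe sets, adjusted p = 0.195). Its dimmer probe set gave 0.53 ± 0.73, with overlap.

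Stat3, the transcription factor itself, had 12.76, 13.15 and 13.03 in Npc1-/- P49 animals, against 12.60, 12.58 and 12.74 in Npc1+/+ P49 animals. The groups were narrowly separate, by 0.34 ± 0.14 (limma, adjusted p = 0.346). The probe set 1460700_at gave 0.37 ± 0.14 (limma over all probe sets, adjusted p = 0.388) and the dim 1424272_at -0.36 ± 0.49 (adjusted p = 0.91). Array data on Stat3 RNA do not show the phosphorylation that activates the protein.

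Socs3, the feedback inhibitor of gp130 signalling whose upstream sequence holds the STAT match above, had 9.16, 10.33 and 9.99 in Npc1-/- P49 animals, against 7.88, 8.75 and 8.76 in Npc1+/+ P49 animals. The difference was 1.37 ± 0.39 and did not pass (limma over all probe sets, adjusted p = 0.147). The genotypes were separate for all 3 Socs3 probe sets. The other Socs3 probe sets gave 2.28 ± 0.77 (adjusted p = 0.27) for 1416576_at and 1.12 ± 0.45 (adjusted p = 0.411) for 1456212_x_at.

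**Figure D2:**
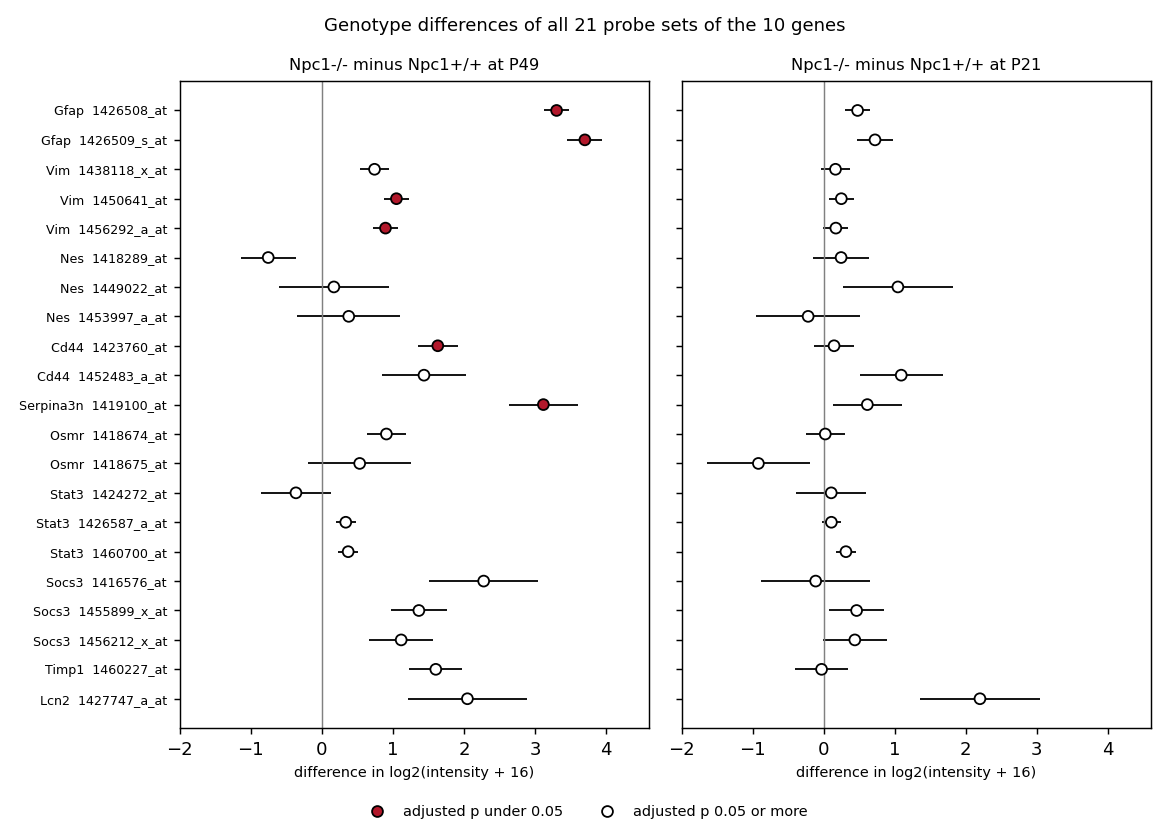
Npc1-/- minus Npc1+/+ difference of each of the 21 member probe sets at P49 (left) and P21 (right), in log2(intensity + 16), with limma's SE as bars; filled points have an adjusted p under 0.05 over all probe sets. At P49 6 probe sets of Gfap, Vim, Cd44 and Serpina3n are filled, and at P21 none is.

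Within the Npc1-/- P49 group, replicate 1 was the lowest of the 3 animals for 8 of the 10 genes. It was labelled male, but its Xist level of 15.63 was that of most arrays labelled female. Replicate 2 was the highest for 6 genes and replicate 3 for 4. Replicate 1 also had the lowest summed level of microglia markers of its group, as given below. Its summed level of Purkinje cell markers was the highest of the group, at 641000 beside 472000 and 506000. In the other groups 1 animal was also the highest for most of the genes. Npc1-/- P21 replicate 2 and Npc1+/+ P21 replicate 3 were so for 7 each, and Npc1+/+ P49 replicate 3 for 6. Whether Npc1-/- P49 replicate 1 differs from the rest of its group was not tested.

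At P21 no member passed in either fit. In limma over all probe sets 0 of 21 were called, beside 0.0265% called higher and 0.00442% called lower over all probe sets, and 4 of the 21 had an unadjusted p under 0.05, beside 1809 of all 22626 (8%). Nor was any of the 4 members that passed the filter called in the fit of genes, where 0.0511% were called higher and 0.0128% lower. Without the 3 doubtful arrays 0 of 21 were called as well. Differences were positive for 17 of the 21 probe sets, which belong to only 10 genes, beside 49.3% of the genes tested. Without the 3 doubtful arrays signs turned both ways. Both Gfap probe sets became negative (-0.052 and -0.006) and Socs3 1416576_at positive (1.058). The Npc1-/- P21 values lay above all Npc1+/+ P21 values for 2 probe sets, that of Serpina3n and Stat3 1460700_at, and below them for none, beside 6.18% and 5.6% of the genes tested.

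Gfap had 13.65, 14.44 and 14.30 in Npc1-/- P21 animals, against 13.68, 13.55 and 13.71 in Npc1+/+ P21 animals. Replicates 2 and 3 of the null group were raised and replicate 1 was at the wild-type level. The difference was 0.48 ± 0.17 (limma, adjusted p = 0.424). It rested on which animals were counted. Without Npc1-/- P21 replicate 1 it was 0.72 and passed (adjusted p = 0.0421), and without the 3 arrays of doubtful sex label it was -0.05 (adjusted p = 0.966), because these include both raised animals. The lower Xist level and the higher Gfap level thus fell on the same null animals at P21. The summed level of meningeal markers was 94900, 217000 and 189000 in Npc1-/- P21 replicates 1 to 3, and that of choroid plexus markers 7610, 178000 and 91700, so both were also higher in the animals with more Gfap. These differences cannot be told apart in 3 animals, and their part in the Gfap level was not tested.

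Serpina3n had 9.60, 9.71 and 9.68 in Npc1-/- P21 animals, against 8.69, 9.11 and 9.35 in Npc1+/+ P21 animals, a difference of 0.61 ± 0.49 (limma over all probe sets, adjusted p = 0.742). Vim at 0.25 ± 0.17 (limma, adjusted p = 0.595), Cd44 at 0.15 ± 0.26 (adjusted p = 0.848) and Stat3 at 0.11 ± 0.14 (adjusted p = 0.783) overlapped between genotypes at P21. Lcn2 had the largest difference of the 10 genes at P21, 2.20 ± 0.84, and did not pass (limma over all probe sets, adjusted p = 0.562). It too overlapped between the genotypes, and its Npc1+/+ P21 levels of 5.62, 6.54 and 8.81 may be background. Without the 3 doubtful arrays the P21 differences were 0.59 for Serpina3n (limma over all probe sets, adjusted p = 0.942), 2.36 for Lcn2 (adjusted p = 0.777), -0.03 for Vim (limma over genes, adjusted p = 0.987), 0.29 for Cd44 (adjusted p = 0.916) and -0.04 for Stat3 (adjusted p = 0.977).

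Whether the genotype difference grew with age was tested as an interaction, the difference at P49 minus the difference at P21. Gfap passed, at 2.83 ± 0.25 (limma, adjusted p = 7.79e-05), with its second probe set at 2.98 ± 0.35 (limma over all probe sets, adjusted p = 0.00218). These were the only calls among the 21 member probe sets, beside 0.168% called higher and 0.0884% called lower over all probe sets. Cd44 at 1.49 ± 0.37 (limma, adjusted p = 0.117) and Vim at 0.80 ± 0.24 (adjusted p = 0.29) did not pass, nor did Serpina3n at 2.50 ± 0.69 (limma over all probe sets, adjusted p = 0.279) or Timp1 at 1.63 ± 0.53 (adjusted p = 0.434). Without the 3 doubtful arrays Gfap was 3.31 and its second probe set 3.68. This leaves 1 Npc1-/- P21 array, in which Gfap was at the wild-type level. Vim was then 1.07 (limma, adjusted p = 0.0777), Cd44 1.35 (adjusted p = 0.318), Serpina3n 2.55 (limma over all probe sets, adjusted p = 0.452) and Timp1 2.31 (adjusted p = 0.219). Vim passed without Npc1-/- P21 replicate 2 (adjusted p = 0.0378) or Npc1-/- P49 replicate 1 (adjusted p = 0.0469).

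Within Npc1-/- animals, the P49 group was higher than the P21 group in Gfap, Vim and Cd44. This comparison shares arrays with the genotype comparisons, so it is no separate evidence. Gfap was higher at P49 by 2.52 ± 0.17 (limma, adjusted p = 4.07e-06), Vim by 1.23 ± 0.17 (adjusted p = 0.00099) and Cd44 by 1.33 ± 0.26 (adjusted p = 0.0083), where 2.78% of the genes tested were called higher and 3.45% lower. The P49 and P21 levels did not overlap for Gfap, Vim, Cd44 and Serpina3n, 4 of the 10 genes, beside 10.5% of the genes tested. In limma over all probe sets 6 of 21 were called, 2 of Gfap, 3 of Vim and 1 of Cd44, all of them higher, beside 1.21% called higher and 1.26% called lower over all probe sets. Serpina3n narrowly missed there, at 1.94 ± 0.49 (adjusted p = 0.0555). The call of Cd44 was lost without Npc1-/- P49 replicate 2 (adjusted p = 0.0579) or the 3 doubtful arrays (1.11, adjusted p = 0.089). Without these 3 arrays Gfap was 2.96 (limma, adjusted p = 6.55e-07), Vim 1.53 (adjusted p = 0.000573) and Serpina3n 2.02 (limma over all probe sets, adjusted p = 0.185), and the probe sets called were 2 of Gfap and 3 of Vim.

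Within Npc1+/+ animals none of the 21 probe sets was called between the ages, beside 0.0442% called higher and 0.234% called lower over all probe sets, and 4 had an unadjusted p under 0.05, beside 1841 of all 22626 (8.14%). In the fit of genes 0.166% were called higher and 0.536% lower, with none of the members among them. Gfap was lower in every P49 animal than in every P21 animal, with a difference of -0.31 ± 0.17 (limma, adjusted p = 0.618), and Osmr likewise, with a difference of -0.55 ± 0.28 (limma over all probe sets, adjusted p = 0.67). Vim was higher in every P49 animal, by 0.43 ± 0.17 (limma, adjusted p = 0.376), and passed when the fit held only these 2 groups (adjusted p = 0.0196). Without the 3 doubtful arrays Gfap was -0.35 (limma, adjusted p = 0.155), Vim 0.46 (adjusted p = 0.146) and Osmr -0.61 (limma over all probe sets, adjusted p = 0.487), and no member probe set was called. Genes with separate groups in this way were 10.4% higher and 11.1% lower of all tested, so 1 and 2 of the 10 members are near that share. The order of the group means of Gfap was thus Npc1-/- P49 at 16.65, Npc1-/- P21 at 14.13, Npc1+/+ P21 at 13.65 and Npc1+/+ P49 at 13.34, and only the first differed from its neighbour in the test.

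Other genes of the same pathways were counted from lists over the genes that passed the filter. The filter takes the mean over all arrays, so a gene high in Npc1-/- P49 animals alone can enter these counts. Of 6 further genes that reactive astrocytes share across kinds of injury, 2 were tested at P49 and neither passed: Cp, the copper-carrying ferroxidase ceruloplasmin, at 0.72 ± 0.23 (limma, adjusted p = 0.15) and the small heat shock protein gene Hspb1 at 0.24 ± 0.17 (adjusted p = 0.723). Of 13 genes of the so-called A1 state, linked to inflammation, 5 were tested and none passed, with the smallest p for Srgn at 0.64 ± 0.18 (adjusted p = 0.0889) and Serping1 at 0.67 ± 0.24 (adjusted p = 0.226). Their median difference was 0.08, beside -0.02 over all genes. Genes of these lists below the filter were not tested, and their levels are not shown to be above background. In the A1 list, mean P49 levels in Npc1-/- and Npc1+/+ animals were 10.2 and 7.49 for Psmb8. They were 9.46 and 8.6 for Gbp2 and 10.01 and 9.69 for Iigp1. In the shared list they were 9.37 and 7.17 for S1pr3, 8.1 and 6.97 for Cxcl10 and 7.14 and 5.91 for Steap4.

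Of 12 genes of the A2 state, described after ischaemia, 5 were tested, 1 rose and 1 fell at P49, beside 1.52% called higher and 1.14% called lower over all genes. Cd14, a co-receptor for bacterial lipopolysaccharide that microglia also express, rose by 1.82 ± 0.30 (limma, adjusted p = 0.00297). B3gnt5, a glycosyltransferase of glycolipid synthesis, was -1.60 ± 0.19 (adjusted p = 0.000254). The remaining 3 did not pass, and the median of the 5 was 0.18. Below the filter, mean P49 levels in Npc1-/- and Npc1+/+ animals were 8.68 and 5.87 for Cd109 and 8.07 and 6.7 for Tgm1. They were 8.78 and 7.83 for Ptx3, 8.62 and 7.67 for Ptgs2 and 9.34 and 8.84 for Emp1. Clcf1, at 9.15 and 9.42, and Slc10a6, at 7.86 and 8.62, were lower in Npc1-/- animals. None of these dim genes was tested.

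Of the gp130 ligands 5 of 8 had a probe set and none passed the filter, so which cytokine was present was not tested. Of 6 receptor genes 3 were tested and none passed at P49, with Il6st, which encodes gp130, at 0.25 ± 0.14 (limma, adjusted p = 0.591) and the ciliary neurotrophic factor receptor gene Cntfr at -0.34 ± 0.31 (adjusted p = 0.806). Of 6 JAK and STAT genes tested besides Stat3 none passed, with a median of 0.06, and Stat6 at 0.64 ± 0.28 (adjusted p = 0.401) and Stat2 at 0.34 ± 0.25 (adjusted p = 0.735) had the smallest p. Among 14 tested feedback regulators and known targets of STAT3, 11 had positive differences and 2 rose, beside 45.9% positive and 1.52% called higher over all genes. The 2 that rose were Ifitm3, an interferon-inducible membrane protein gene, at 1.11 ± 0.19 (limma, adjusted p = 0.00473) and A2m, the protease inhibitor alpha-2-macroglobulin, at 0.86 ± 0.16 (adjusted p = 0.00812).

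Of 10 tested filament genes and partners other than the members, 5 had positive differences, none rose and 1 fell. Beside these and the following counts, 45.9% of all genes were positive, 1.52% rose and 1.14% fell. Nefh, the heavy neurofilament of large axons, was -0.84 ± 0.17 (limma, adjusted p = 0.0147). Of 9 tested genes of TIMPs and metalloproteases 1 rose, Timp2, at 0.72 ± 0.18 (adjusted p = 0.043). Among 8 tested genes of CD44 ligands and partners 1 rose, Msn, which links CD44 to actin, at 0.69 ± 0.12 (adjusted p = 0.00605), with 6 of the 8 positive and a median of 0.45. The partners of lipocalin 2 in iron handling held 2 tested genes, Cp as above and the lipocalin receptor gene Slc22a17 at 0.31 ± 0.11 (adjusted p = 0.253).

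Genes used as markers of astrocytes and Bergmann glia at rest formed a further list. All 23 with a probe set were tested, and 19 had positive differences at P49, beside 45.9% of all genes. Only the water channel gene Aqp4 rose, at 0.94 ± 0.13 (limma, adjusted p = 0.000663), where 1.52% of all genes did. The median difference of the 23 genes was 0.14, beside -0.02 over all genes. Negative differences, none of which passed, were those of Slc1a3 (-0.44), Fabp7 (-0.29), Hopx (-0.11) and Gdf10 (-0.055). The summed level of the 23 genes was 896000 to 948000 in Npc1-/- P49 and 820000 to 841000 in Npc1+/+ P49 animals. The brightest of them was Aldoc, with mean levels of 17.21 and 17.18 in these groups. Whether each gene is specific to these cells was not tested, so the sum need not follow them alone.

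**Figure D3:**
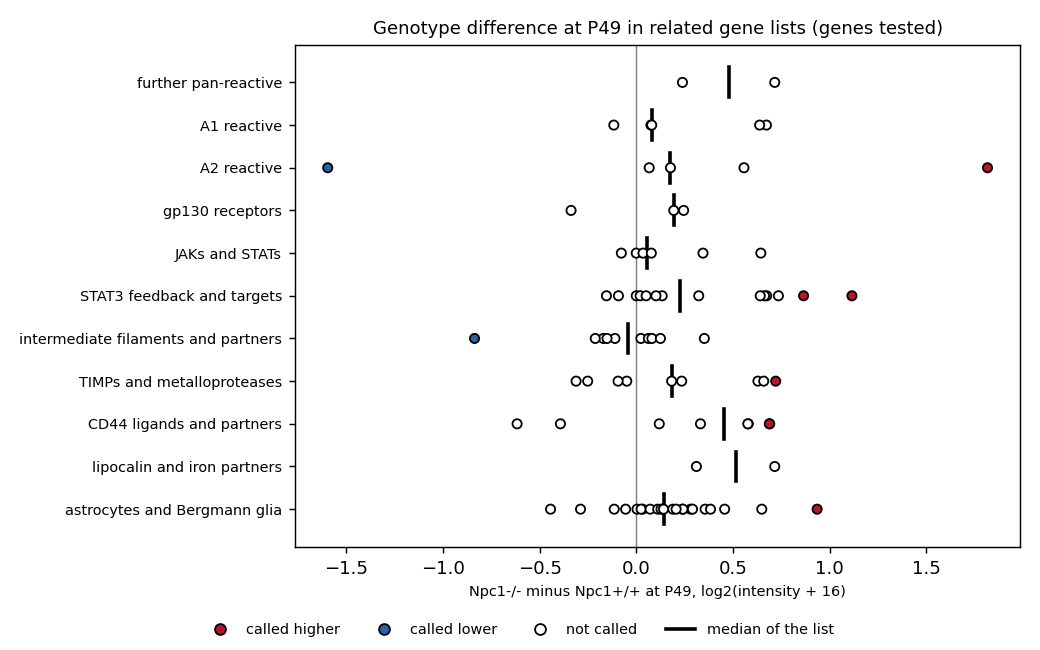
Npc1-/- minus Npc1+/+ difference at P49, in log2(intensity + 16), of each tested gene of 11 related lists; filled points passed limma and black bars are list medians. All list medians lie between -0.04 and 0.51.

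Markers of other cells moved in the same arrays as the members. All 14 tested microglia and macrophage genes of 18 listed had positive differences at P49 and 13 rose, with a median of 3.23. Over all genes 45.9% were positive and 1.52% rose. Examples were Tyrobp, a signalling adaptor, at 3.55 ± 0.17 and the complement gene C1qb at 3.06 ± 0.16 (limma, adjusted p = 5.82e-08 for both). The summed level of the 14 genes was 164000 to 208000 in Npc1-/- P49 and 27100 to 27600 in Npc1+/+ P49 animals. It was 50100 to 59500 in Npc1-/- P21 and 26500 to 33100 in Npc1+/+ P21 animals. At P21 it was thus raised in all 3 null animals, whereas Gfap was raised in replicates 2 and 3 alone. The part of microglia in the levels of Vim, Cd44 and the secreted genes was not tested. Of 11 Purkinje cell genes tested, 9 fell at P49, beside 1.14% of all genes, with a median of -0.94.

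Markers of meningeal fibroblasts and choroid plexus, tissues that can adhere to a dissected cerebellum, also differed between arrays. The 11 meningeal genes summed to 213000 to 227000 in Npc1-/- P49 and 166000 to 187000 in Npc1+/+ P49 animals. Of them 2 rose, beside 1.52% of all genes, Igfbp2 at 1.65 ± 0.30 (limma, adjusted p = 0.0073) and Fmod at 1.41 ± 0.30 (adjusted p = 0.0183). The meningeal sum mostly follows Ptgds, with mean levels of 17.29 and 17.11 in these groups, beside 13.68 or less for the others. The 3 tested choroid plexus genes summed to 79200 to 211000 in Npc1-/- P49 and 9010 to 35900 in Npc1+/+ P49 animals, with Ttr, the thyroid hormone carrier transthyretin, at 3.12 ± 1.29 (adjusted p = 0.35) and Folr1, a folate receptor gene, at 1.91 ± 0.87 (adjusted p = 0.429). This sum mostly follows Ttr, with a mean level of 17.17 in Npc1-/- P49 animals, beside 10.95 for Folr1. At P21 the choroid plexus level moved with Gfap among the null animals, as given above, at 7610, 178000 and 91700 in replicates 1 to 3 beside Gfap levels of 13.65, 14.44 and 14.30. Among Npc1+/+ P21 animals it was 7400, 191000 and 176000, while Gfap was 13.68, 13.55 and 13.71 in the same order. As covariates the mean log2 level of the tested genes of a list was used, not the sum. With that of choroid plexus the P49 difference was 3.17 for Gfap, 0.97 for Vim, 1.72 for Cd44 and 3.16 for Serpina3n. With that of the meningeal genes the difference was 3.02, 0.80, 1.81 and 2.94 in the same order, and all 8 values passed. Both marker sums also lay apart between the genotypes at P49, so these fits cannot fully separate marker level from genotype. The part of adherent tissue in the members was not tested.

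**Figure D4:**
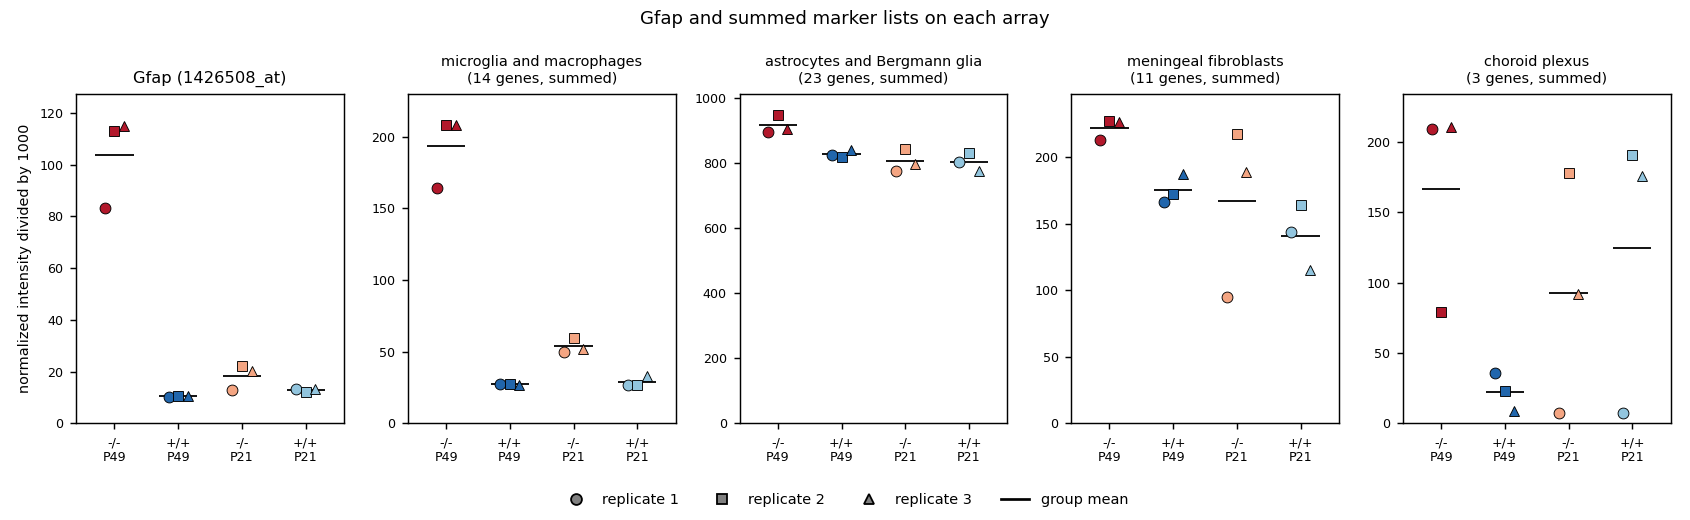
Normalized intensity, divided by 1000, of Gfap and of 4 summed marker lists on each array, by group; symbols are replicates and bars are group means. Gfap and the microglia sum stand highest in the Npc1-/- P49 animals, the astrocyte sum differs little, and the choroid plexus sum varies within groups.

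The genes whose course over the 12 arrays was most like that of Gfap were named by the smallest root-mean-square difference after centring each gene on its own mean. They were Fcer1g, an Fc receptor adaptor gene, at 0.28, Tyrobp at 0.33, the complement gene C1qa at 0.33, Clec7a, a receptor for fungal glucans, at 0.33, and C1qb at 0.36, all of the microglia and macrophage list. Among the members Cd44 ranked 28 at 0.73, Vim 37 at 0.82 and Stat3 567 at 1.20 of the 7835 genes. The members below the filter, Serpina3n among them, were not ranked. Fcer1g and Clec7a, like Cd44, had means below the filter in the other groups and were ranked only through their Npc1-/- P49 level. The measure follows size as well as shape, and it describes these arrays only. Vim and Cd44 were closer to each other, at 0.37, than either was to Gfap. In Npc1-/- P21 replicate 1, the null animal with Gfap at the wild-type level, Fcer1g was 8.64, the lowest of all 12 arrays, and Tyrobp was 11.80, the highest of its group.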

How the data were processed

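Cerebellar RNA of 12 mice was labelled with biotin and hybridized to Affymetrix arrays, per the labels. The values deposited by the authors are linear intensities, 1 for each probe set of an array, and they show the same mean of 5002 on every array after trimming 2% at each end. The algorithm that summarised the probes is not given in the sources used here. Groups were taken from the genotype and time point labels. A protocol field has all animals killed at P21, against the time point labels and the series design. The labels call the replicates individual animals.

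Of 22690 probe sets, 64 are controls. The platform annotation gives 1 symbol to 20380 of the others, several to 691 and none to 1555. Of the single symbols, 20351 were matched by Entrez identifier to the RefSeq table (GRCm38.p6) and 29 were not. Intensities were transformed as log2(intensity + 16) and quantile normalized, since array medians ranged from 10.65 to 10.92. A gene was represented by its brightest single-symbol probe set and tested when its mean over all arrays was at least 9.93 (an intensity of 959), the 40th percentile over probe sets without the controls. This left 7835 of 12393 genes, among them Gfap, Vim, Cd44 and Stat3. The other 6 members did not pass, so a fit of all 22626 non-control probe sets without a filter was made for them. Both fits used limma 3.58.1 in R 4.3.3 with 4 group means, all 12 arrays, eBayes with a trend and Benjamini-Hochberg adjustment over all features tested, two-sided, at a threshold of 0.05. Fold changes on this scale understate the change of dim genes. The fit was tested on simulated data.

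The members, the gene lists and the tests were chosen with earlier results of these data known. The named genes are the 10 members, up to 4 genes of each list with the smallest p among those called at P49 (or the 2 with the smallest p where none was called), the 5 genes closest to Gfap, and Npc1, Xist and Eif2s3y as checks of the labels. Genes below the filter are also named for the shared reactive, A1 and A2 lists, and the brightest gene for the meningeal and astrocyte lists. For the astrocyte list the genes with negative differences at P49 are named as well. Upstream sequences come from RefSeq, for all 10 members. The alternatives were the deposited values, median centring, a pseudocount of 1 or 256, no filter, the mean of probe sets, only the arrays of the 2 groups, the replicate number as a block, no trend, each array left out and the 3 arrays of doubtful sex label left out. The marker covariates, each the mean log2 level of the tested genes of a list on an array, were added after seeing the data.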

Additional observations from a re-analysis of the deposited data

Results flagged for a closer look

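Gfap is listed because its genotype difference was not the same at the 2 ages, by a test of that difference. The interaction, P49 minus P21, was 2.825 on the log2 scale for its brightest probe set (limma, adjusted p = 7.79e-05) and 2.979 for the probe set 1426509_s_at (limma over all probe sets, adjusted p = 0.00218). Over the alternatives the first ran from 2.59 to 3.31. The value of 3.31 came from the fit without the 3 P21 arrays of doubtful sex label. That fit leaves out both null P21 arrays with raised Gfap and keeps 1, with Gfap at the wild-type level, so it is no separate support. In each of the other alternatives the interaction passed. The groups held 3 arrays each, too few for a test of single outlying arrays.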

How the results depend on the processing

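Over 26 results on the members, 584 of 603 alternative values kept their direction and their side of the threshold. At P49 the calls of Gfap (3.02 to 3.50), Vim (0.80 to 1.25), Cd44 (1.38 to 1.85) and Serpina3n (2.44 to 3.60) held in every alternative in which they were tested, and Cd44 was not tested with the mean of probe sets. The replicate block gave adjusted p-values of 3.31e-07, 0.00177, 0.00622 and 0.00672 for these genes and changed no call. Arrays of the same number correlated at -0.175 to 0.189 in their deviations, above 0.1 in 6 of 18 pairs. Arrays of different numbers correlated at -0.213 to 0.307, above 0.1 in 4 of 36 pairs. Whether arrays of the same number share a batch was not tested. Timp1 at P49 passed in 5 of 22 alternatives.

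Signs turned for small differences that were not called. Without the 3 doubtful arrays these were Gfap (-0.052), Vim (-0.029) and Stat3 (-0.04) at P21. With single arrays left out Stat3 at P21 ran from -0.02 (without Npc1-/- P21 replicate 2) to 0.198, and Cd44 between the ages in Npc1+/+ from -0.297 to 0.053 (without Npc1+/+ P21 replicate 3). Stat3's difference between the ages in Npc1-/- was -0.018 with median centring. With the mean of probe sets Stat3 was -0.151 between the ages in Npc1-/- and -0.062 in the interaction. Without a filter 5 members were called at P49 in place of 3. With only the arrays of the 2 groups 1 member was called between the ages in Npc1+/+, and 2 member probe sets in place of 6 between the ages in Npc1-/-. Leaving out single arrays gave 0 to 1 member called at P21 and 1 to 2 in the interaction.

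Counts over all genes moved more. At P21 they were 5 as reported, 8 on deposited values, 3 with the mean of probe sets, 1 with only the arrays of the 2 groups, 10 with the meningeal covariate, and 3 to 27 with single arrays left out. At P49 they were 208, 400 with only 2 groups, 356 without the doubtful arrays, and 100 to 321 with single arrays left out. The interaction gave 43, 82 with the meningeal covariate, and 18 to 66 with single arrays left out. Between the ages in Npc1-/- there were 488, 746 with median centring, 126 with 2 groups and 171 to 639 with single arrays left out. In Npc1+/+ there were 55, 126 with 2 groups, 36 without a trend, 126 without the doubtful arrays, 89 with the meningeal covariate and 14 to 112 with single arrays left out. Fewer arrays enter the fits with arrays left out; otherwise the cause was not tested. Dim levels, with no detection calls used, limit what can be said of Nes, Lcn2 and Socs3 in every group. The same holds for Osmr, Timp1 and Serpina3n outside the Npc1-/- P49 group.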
